A study of Mus musculus with 2 samples.

Results

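The genes of 2 cytokine receptor chains lie side by side on mouse chromosome 6: Il23r (gene 209590), which encodes the chain that gives T helper 17 (Th17) cells their response to IL-23, and Il12rb2 (gene 16162), which encodes the signalling chain of the IL-12 receptor of T helper 1 (Th1) cells. Binding of STAT3 and STAT5 across both genes was read from chromatin immunoprecipitation sequencing, in which DNA bound to a protein is pulled down with an antibody and sequenced. The interval was set by position, on mm9 chromosome 6 from 67220000 to 67480000, with Il12rb2 from about 67241000 to 67326000 and Il23r from about 67373000 to 67442000. Gene ends are approximate and stated here to 1 kb. The spans of 85.0 and 69.0 kb compare with 90.3 and 68.9 kb in the RefSeq gene table of GRCm38. An Il12rb2 end may thus be off by more than 1 kb. The interval held 37 of the 86803 sites that were found along the genome with either antibody.

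Each antibody had 1 library, and the libraries differed in the cytokine given as well as in the antibody. Both came from wild type C57BL/6J cells: naive CD4+ T cells of spleen and lymph nodes had been sorted and polarised in vitro for 3 days with antibodies to CD3, CD28 and IL-4, IL-6 at 20 ng/ml, TGF-beta at 2 ng/ml, and anti-IL-2 listed in a unit usual for the cytokine. The STAT3 cells then received IL-6 at 40 ng/ml for 30 minutes. The STAT5 cells received IL-2 at 200 IU/ml for 30 minutes, and their library was made with antibodies to STAT5a and STAT5b together. The STAT3 library held 20784388 nuclear reads and the STAT5 library 17963766. Levels are given as RPM, reads scaled to 1000000 nuclear reads, so 1 RPM stands for 20.8 STAT3 reads or 18.0 STAT5 reads. All intervals are 95% intervals. Those of levels, read densities and ratios cover counting error only, and no difference between the libraries has a replicate check. Intervals of a share of sites treat the sites as independent draws, which neighbouring sites of 1 locus need not be. No input library was used, and the Th17 label cannot be checked with reads of bound DNA. Binding in more cells and stronger binding in each cell cannot be told apart.

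As background, IL-23 binds a receptor made of the Il23r chain and the chain shared with the IL-12 receptor, and signals through JAK2 and TYK2 mainly to STAT3, which supports the Th17 programme. IL-12 uses the same shared chain together with the Il12rb2 chain and signals mainly to STAT4, which drives Th1 cells to make interferon gamma. IL-6 activates STAT3 and is known to raise Il23r in developing Th17 cells, whereas IL-2 activates STAT5 and is known to raise Il12rb2 in T helper cells.

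Both genes are read from high to low coordinates, so Il23r lies upstream of Il12rb2 with its tail towards the Il12rb2 start. In the order of the RefSeq gene table (GRCm38), Serbp1 lies beyond the tail of Il12rb2, and the genes listed between the receptor genes are 3 pseudogenes and a small nucleolar RNA gene. The 250 bases before each start are shown because sites of both antibodies lay at or near both starts. They are from RefSeq (GRCm38.p6, minus strand), written 5′ to 3′ and ending 1 base before the start. Capitals mark a match to TTCNNNGAA, the short palindrome that STAT proteins are known to recognise.
Il23r: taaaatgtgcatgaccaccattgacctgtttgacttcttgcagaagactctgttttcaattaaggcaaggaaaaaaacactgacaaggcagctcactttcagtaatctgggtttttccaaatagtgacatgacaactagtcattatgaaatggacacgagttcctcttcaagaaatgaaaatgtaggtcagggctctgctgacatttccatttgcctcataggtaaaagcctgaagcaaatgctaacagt
Il12rb2: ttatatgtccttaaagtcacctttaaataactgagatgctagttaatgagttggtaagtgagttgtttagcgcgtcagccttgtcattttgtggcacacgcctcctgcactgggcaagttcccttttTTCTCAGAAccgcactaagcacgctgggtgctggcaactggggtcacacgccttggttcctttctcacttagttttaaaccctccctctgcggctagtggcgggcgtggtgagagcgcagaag

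The Il12rb2 promoter held 1 match, TTCTCAGAA, from 123 to 115 bases before the start, and the Il23r promoter held none. Of 32851 promoters of the same length, 7.02% had a match to TTCNNNGAA. The stricter TTCCNGGAA, which is contained in it, was in neither promoter and in 0.913% of all promoters. Both motifs read the same on either strand. The match is a description of these letters, since the files are on another build and no site was placed on it to the base.

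Sites were dense along both genes. A region was called where a 200 bp window stood at least 4-fold over the local and genome-wide means, with an adjusted Poisson p at or below 1e-05. Over the genome, 3.11% of the 1 kb bins with a read met a STAT3 region and 3.87% a STAT5 region. Of the 245 such bins of the locus, 12.2% met a STAT3 region and 16.3% a STAT5 region. The locus held 25 STAT3 and 32 STAT5 regions, which merged into 37 sites with a median spacing of 4.5 kb. Windows of 260 kb along the genome had a median of 5 sites, and the locus had more than 98.7% of the 9324 windows compared. It drew 353 RPM of STAT3 and 438 RPM of STAT5, against medians of 69.5 and 58.3 RPM. With regions of at least 8-fold only, 16 sites were left. In the profile along the locus the tall sites of both antibodies stand within or between the genes, and the outer flanks are low.

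**Figure D1:**
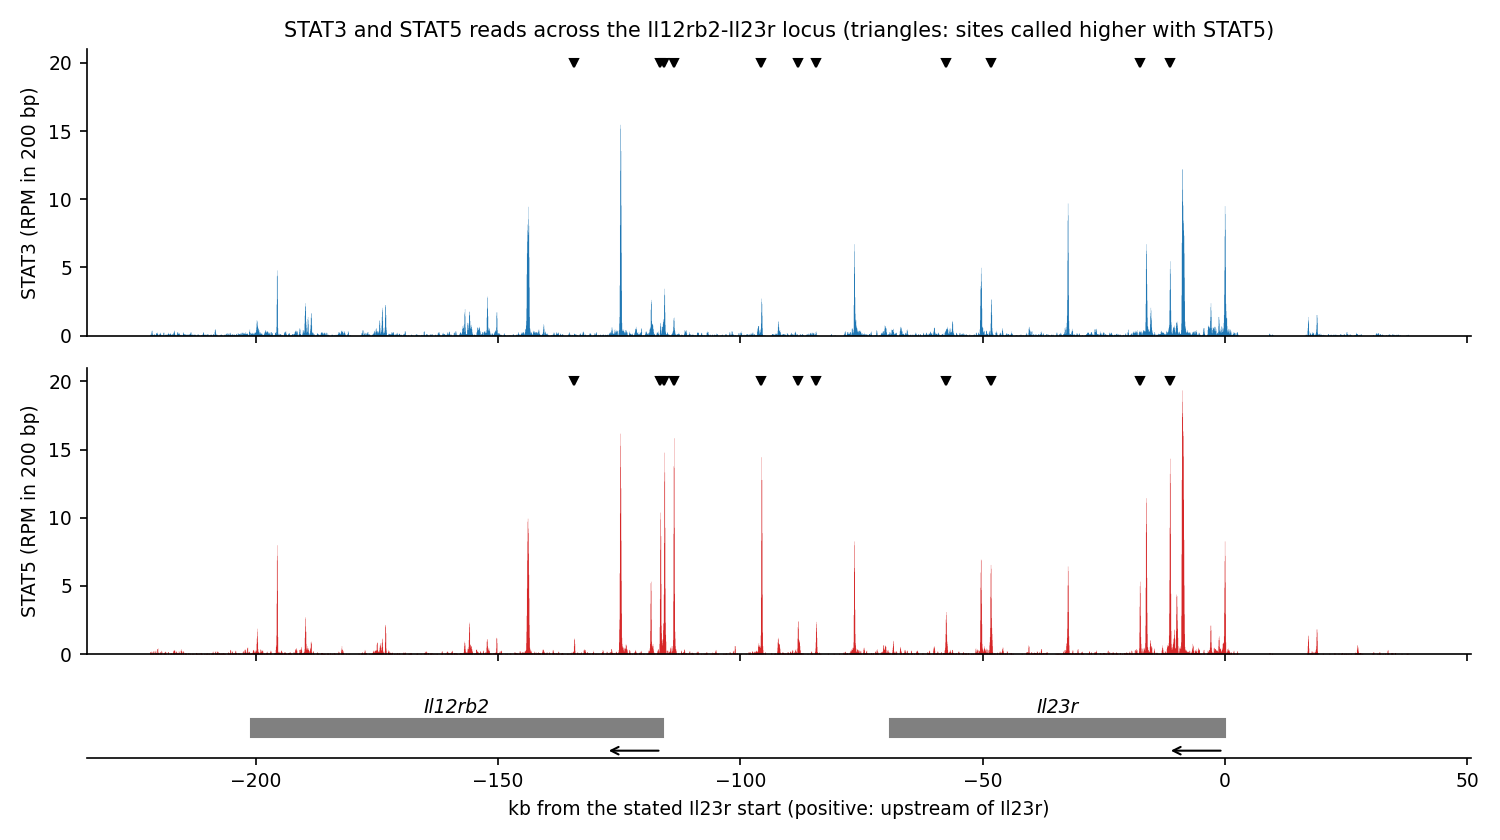
STAT3 (top) and STAT5 (middle) reads in 200 bp windows, in RPM, against the distance in kb from the stated Il23r start, with the gene spans and the direction of transcription below. Triangles mark the 11 sites called higher with STAT5; the tallest STAT5 window, at 19.4 RPM, and a STAT3 window of 12.2 RPM stand together inside Il23r near its start.

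Of the 37 sites, 20 were called with both antibodies (54.1%, exact interval 36.9 to 70.5%, against 47.5% of all sites), 12 with STAT5 only and 5 with STAT3 only. Around the centre of a site, 400 bp were counted in either library, and the STAT5 over STAT3 ratio of RPM was called when its interval excluded every value within 2-fold. STAT5 was higher at 11 sites and STAT3 at 0. Over all sites of the genome, 25.0% were higher with STAT5 and 2.41% with STAT3, so the share of 29.7% in the locus (exact interval 15.9 to 47.0%) is near that background. The median STAT5 over STAT3 ratio was 1.28 in the locus and 1.24 over all sites.

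The read density ranked the parts of the locus differently for each antibody. STAT3 reads came to 2.02 RPM per kb over Il23r (interval 1.94 to 2.09), 1.64 over Il12rb2 (1.58 to 1.70) and 0.945 in the 47.0 kb between the genes (0.885 to 1.01). STAT5 reads came to 2.63 RPM per kb over Il23r (2.54 to 2.72), 2.07 between the genes (1.97 to 2.17) and 1.60 over Il12rb2 (1.54 to 1.66). Reads spread evenly over the genome would give 0.424 RPM per kb. The gap between the genes was thus the lowest of the 3 with STAT3 and above Il12rb2 with STAT5. The latter order rests on the stated Il12rb2 start: with each gene end moved 1 kb outward, STAT5 came to 1.70 RPM per kb in the gap and 1.80 over Il12rb2.

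**Figure D2:**
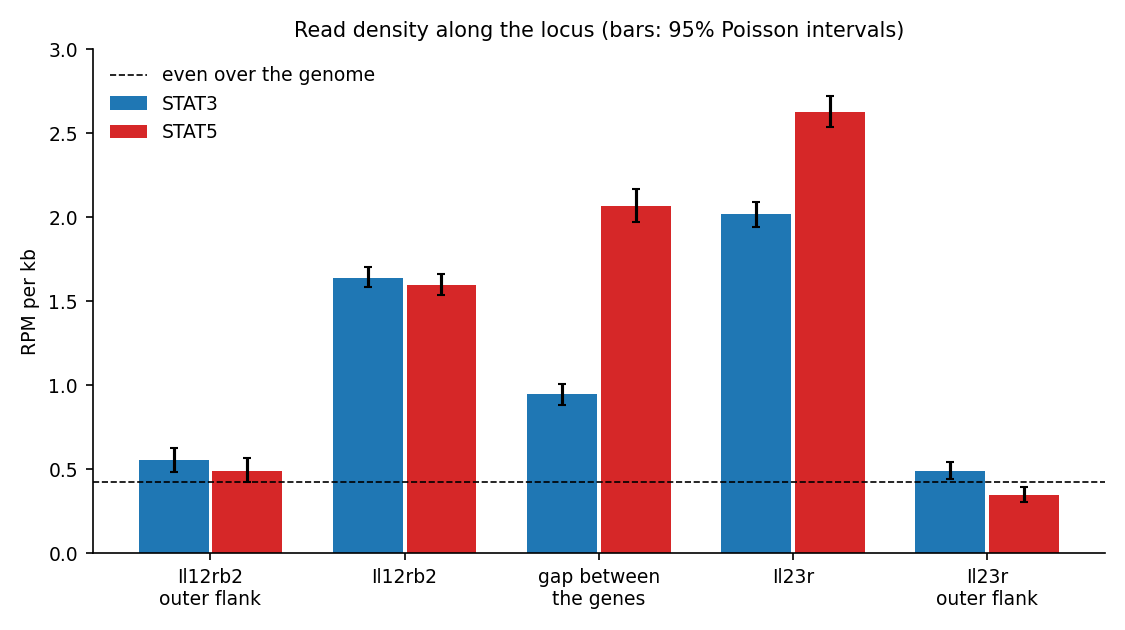
STAT3 and STAT5 reads in RPM per kb over each part of the locus, from the flank beyond Il12rb2 on the left to the flank beyond Il23r on the right, with 95% Poisson intervals and the even genome level of 0.424 as a dashed line. STAT5 exceeds STAT3 most in the gap between the genes, 2.07 against 0.945.

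Il23r, the receptor gene of the Th17 lineage, carried 12 sites, of which 7 were called with both antibodies. The tallest site, from 67432951 to 67433650 and about 9 kb inside the gene from its start, had 365 STAT3 reads (17.6 RPM) and 548 STAT5 reads (30.5 RPM). It ranked 622 by STAT3 and 564 by STAT5 among the 86803 sites. STAT5 was 1.74 times as high (interval 1.52 to 1.99), which was not called. Since a position and strand holds at most 1 read, 400 bp holds at most 800, and STAT5 took 68.5% of these places here. With a correction for places already taken, the ratio was 2.19 (1.92 to 2.51), also not called. Under scaling by 10 kb bins without a region it was 2.40 (2.10 to 2.75), and the site was then called higher with STAT5.

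At the Il23r start itself a site from 67441701 to 67442200 had 262 STAT3 reads (12.6 RPM) and 183 STAT5 reads (10.2 RPM). The STAT5 over STAT3 ratio was 0.808 (interval 0.665 to 0.980), and not called. A site about 32 kb inside the gene, from 67409301 to 67409800, had a like balance, with 242 STAT3 and 147 STAT5 reads and a ratio of 0.703 (0.569 to 0.866). When libraries were scaled by 10 kb bins without a region, the direction at the start turned, with a ratio of 1.12, and the inner site had 0.972.

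STAT5 was higher at 4 of the 12 Il23r sites, beside a genome background of 25.0%. The largest ratio stood about 18 kb from the start, from 67424301 to 67424600, with 114 STAT5 reads beside 12 of STAT3 (11.0 times, interval 6.05 to 21.9). Its neighbour 1.3 kb nearer the start, from 67425501 to 67425950, was tall with both, at 181 STAT3 and 262 STAT5 reads (1.67 times, 1.38 to 2.04). These sites show that the balance of the libraries changed over a short distance. The site about 11 kb from the start, from 67430451 to 67430800, had 141 STAT3 reads beside 326 of STAT5, giving a ratio of 2.68 (2.19 to 3.28).

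The other called pair lay deeper in the gene. From 67393451 to 67393850 there were 64 STAT3 and 150 STAT5 reads (2.71 times, interval 2.01 to 3.69), and from 67384201 to 67384650 there were 17 and 69 (4.70 times, 2.73 to 8.52). The first of these is at the edge of the rule, and it was no longer called under scaling to a median ratio of 1 over the shared sites of the genome. A site from 67385551 to 67385850 had the lowest ratio of the locus, with 29 STAT3 and 7 STAT5 reads (0.279, 0.103 to 0.652), and its interval reaches past 0.5. A site tall with both antibodies, from 67391401 to 67391850, had 154 reads of STAT3 beside 173 of STAT5. The remaining sites of the gene were low and lay apart. About 41 kb from the start there were 14 STAT3 and 13 STAT5 reads, and about 3 kb from it 58 and 47.

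Of the 12 sites of Il23r, 6 lay in its first 20 kb, and the calling rule, which measures each window against its neighbourhood, left some places out. Outside the called sites, a 400 bp window from 67432000 to 67432399 held 74 STAT5 reads and one from 67426400 to 67426799 held 57 STAT3 reads, against locus means outside sites of 3.50 and 4.92 reads. With the genome-wide mean alone, Il23r had 22 sites in place of 12.

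Il12rb2, the receptor gene of the Th1 lineage, carried 15 sites over its 85 kb, of which 8 were called with both antibodies. The tallest, from 67316951 to 67317500 and about 9 kb inside the gene from its start, had 451 STAT3 reads (21.7 RPM) and 405 STAT5 reads (22.5 RPM), a ratio of 1.04 (interval 0.906 to 1.19). It was the tallest STAT3 site of the locus and ranked 241 by STAT3 among all sites, while by STAT5 it ranked 2081. A second site tall with both, from 67297751 to 67298450 and about 28 kb from the start, had 348 STAT3 reads beside 309 of STAT5, giving a ratio of 1.03 (0.879 to 1.20). At neither did the libraries differ beyond counting error on the RPM scale. On the scale of bins without a region the taller one had a ratio of 1.44 (1.25 to 1.65).

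The inner part of Il12rb2 held smaller sites with more STAT3 than STAT5 reads at several. Of 13 sites more than 5 kb inside the start, 6 had a ratio below 1, with 40 to 71 STAT3 and 22 to 44 STAT5 reads. The lowest ratio was 0.440 (interval 0.271 to 0.694) from 67289551 to 67289900, with 71 STAT3 reads beside 27 of STAT5, and none was called. On the scale of bins without a region, 5 sites of the gene stayed below 1. The low sites with a ratio near 1 numbered 3, with 38 to 67 STAT3 and 37 to 60 STAT5 reads and ratios of 1.04 to 1.13. Towards the tail, a site from 67246151 to 67246550 held 104 STAT3 and 151 STAT5 reads (1.68 times, 1.30 to 2.18). STAT5 was called higher at 1 of these 13 sites, from 67307551 to 67307900, with only 4 STAT3 and 25 STAT5 reads (7.23 times, 2.50 to 28.6).

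At the Il12rb2 start, 3 sites within about 3 kb held far more STAT5 than STAT3 reads, and 1 of them was also called with STAT3. The first, from 67325301 to 67325650 and just inside the stated start, had 23 STAT3 reads (1.11 RPM) and 229 STAT5 reads (12.7 RPM), a ratio of 11.5 (interval 7.49 to 18.5). The second, from 67326101 to 67326500 and within 1 kb of the stated start, had 83 STAT3 reads beside 314 of STAT5, giving a ratio of 4.38 (3.43 to 5.64), and was called with both antibodies. The last, from 67328051 to 67328450 and about 2 kb upstream, had 36 STAT3 reads beside 326 of STAT5, giving a ratio of 10.5 (7.41 to 15.2). All 3 were called higher with STAT5, and stayed so under each scaling tried. A further site near the start, from 67323351 to 67323700, held 63 STAT3 and 113 STAT5 reads, and its ratio of 2.08 (1.51 to 2.87) was not called, but was under scaling by bins without a region.

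Between the genes, upstream of Il12rb2 and beyond the tail of Il23r, STAT5 was called higher at 5 of 7 sites. This share of 71.4% (exact interval 29.0 to 96.3%) stands beside 25.0% of all sites. Neighbouring sites of 1 pair of libraries are not independent draws, so that interval does not show an excess in the gap. The count includes the last pair of sites above. The first of that pair lies within 1 kb of the Il12rb2 start as stated, which is approximate. With each gene end moved 1 kb outward it fell to Il12rb2, leaving 4 of 6 sites called in the gap and 3 of 16 in Il12rb2, and with ends moved 1 kb inward the counts were 6 of 8 and 1 of 14. The next, from 67346101 to 67346600 and about 20 kb upstream of Il12rb2, had 67 STAT3 reads beside 310 of STAT5, giving a ratio of 5.35 (4.10 to 7.08). From 67353651 to 67354100 there were 56 STAT5 reads and 0 STAT3 reads. STAT5 was at least 17.0-fold higher there, by the lower end of the exact interval. From 67357451 to 67357850 there were 7 STAT3 reads beside 52 of STAT5, giving a ratio of 8.59 (3.89 to 22.4).

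The run from the Il12rb2 start to about 32 kb upstream of it thus held 7 sites in a row, with at most 83 STAT3 reads at any. Of these, 6 were called higher with STAT5, beside 25.0% of all sites. The other, from 67349651 to 67349900, was a STAT3-only site with 27 STAT3 and 34 STAT5 reads. Its ratio of 1.46 (interval 0.853 to 2.51) was not called. The run was picked out after its values were seen. The next site, about 40 kb upstream of Il12rb2 and from 67365251 to 67365700, was tall with both antibodies. It had 154 STAT3 and 168 STAT5 reads (1.26 times, interval 1.01 to 1.58).

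The starts of the genes were set beside each other over 5 kb on either side, a width chosen after the data were seen. Around the Il12rb2 start there were 388 STAT3 reads (18.7 RPM) and 1171 STAT5 reads (65.2 RPM), a ratio of 3.49 (interval 3.11 to 3.93). Around the Il23r start there were 589 STAT3 reads (28.3 RPM) and 380 STAT5 reads (21.2 RPM), a ratio of 0.746 (0.654 to 0.851). With 10 kb on either side, which takes in the tall site inside each gene, the ratios were 1.94 at Il12rb2 and 1.19 at Il23r. The Il23r ratio also rose to 1.03 (0.905 to 1.18) when the libraries were scaled by bins without a region, and the Il12rb2 ratio to 4.83. The Il12rb2 start thus had the higher ratio at each width and scaling compared, while the side of 1 on which the Il23r start falls depends on both.

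**Figure D3:**
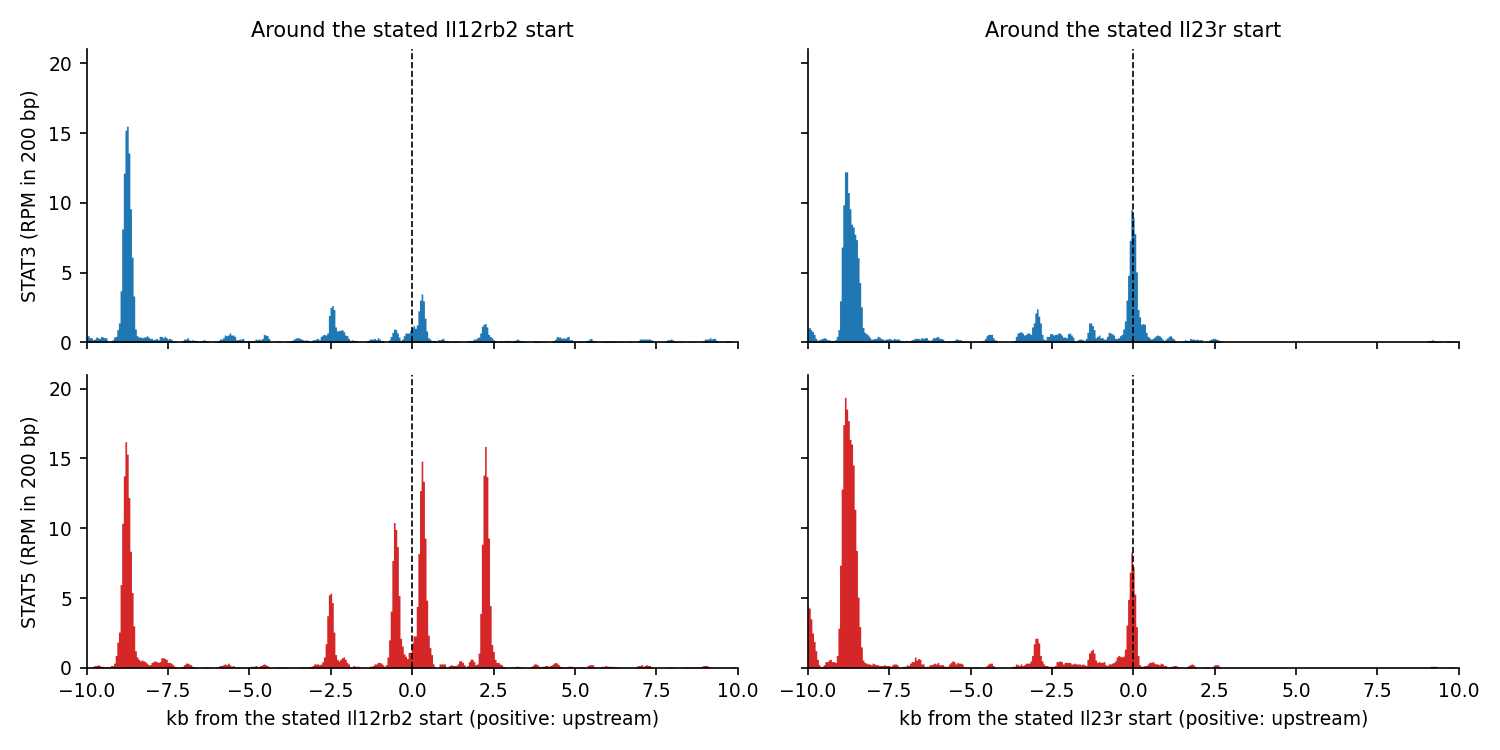
STAT3 (top) and STAT5 (bottom) reads in 200 bp windows, in RPM, within 10 kb of the stated starts of Il12rb2 (left) and Il23r (right). Distances are positive upstream, and the dashed line is the approximate start, stated to 1 kb. Tall STAT5 sites flank the Il12rb2 start where STAT3 is lower than STAT5, both antibodies meet at the Il23r start, and each gene has a site tall with both about 9 kb inside it.

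Over the whole gene spans, Il23r had more reads per kb than Il12rb2 with both antibodies. The excess was 1.23-fold for STAT3 (interval 1.17 to 1.29) and 1.64-fold for STAT5 (1.56 to 1.73). The STAT5 over STAT3 ratio of all reads was 1.30 over Il23r (1.24 to 1.37) and 0.974 over Il12rb2 (0.922 to 1.03), and the former was 1.34 times the latter (1.24 to 1.44), a quotient that does not depend on the scaling of the libraries. It does depend on where a gene is taken to begin, because tall STAT5 sites lie at and just before the Il12rb2 start. With 10 kb upstream added to each gene, the excess of Il23r was 1.26-fold for STAT5 and 1.18-fold for STAT3, and the quotient was 1.06 (0.989 to 1.14), so the difference between the genes was then within counting error. With ends moved 1 kb, the quotient was 1.17 (1.09 to 1.26) outward and 1.51 (1.40 to 1.63) inward. STAT5 was called higher at 4 of 12 Il23r sites (exact interval 9.92 to 65.1%) and at 2 of 15 Il12rb2 sites (1.66 to 40.5%). Over all sites of the genome the share was 25.0%, which both intervals hold. With so few sites, which are not independent draws, these counts cannot tell the genes apart.

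**Figure D4:**
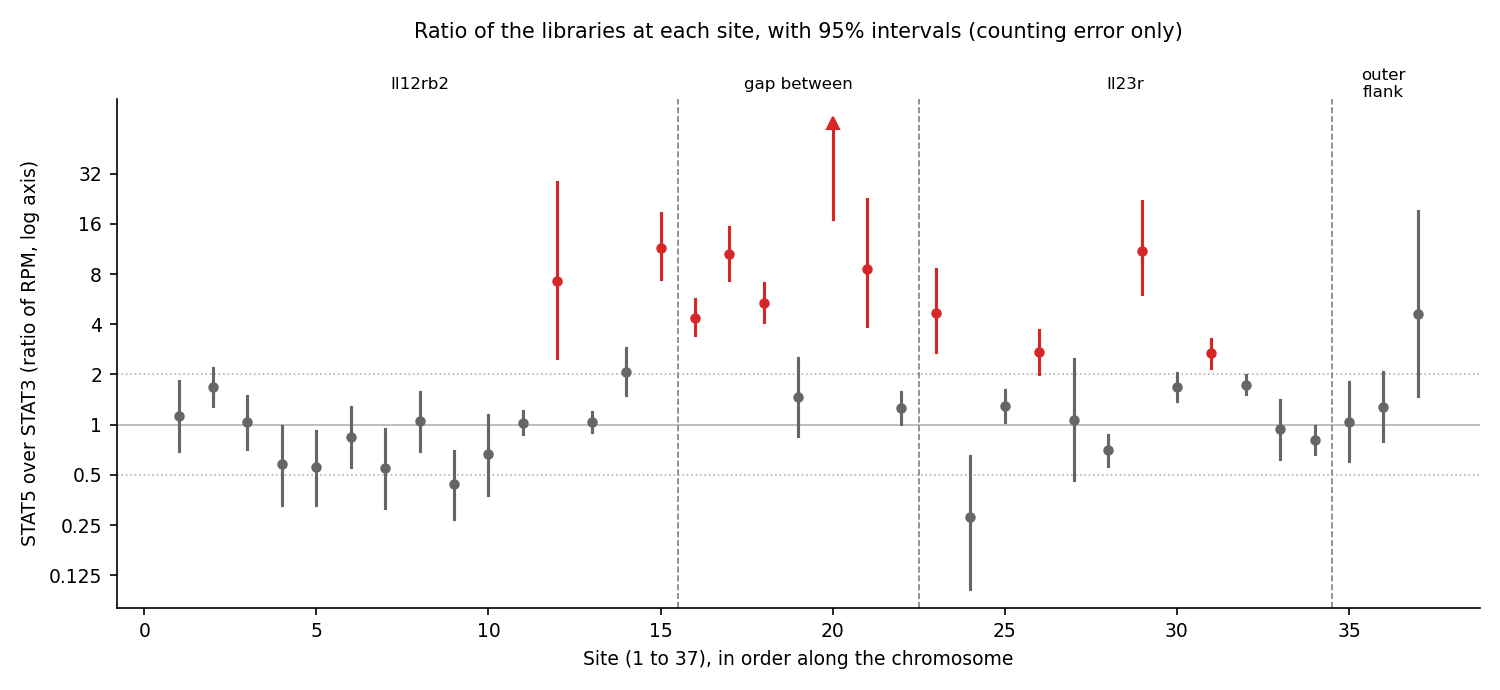
STAT5 over STAT3 ratio of RPM (log axis) at the 37 sites in order along the chromosome, with exact 95% intervals, where red marks the 11 sites called higher with STAT5, the arrow a site without STAT3 reads and dotted lines a 2-fold difference. Red points number 5 in the gap between the genes, 4 in Il23r and 2 in Il12rb2.

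**Figure D5:**
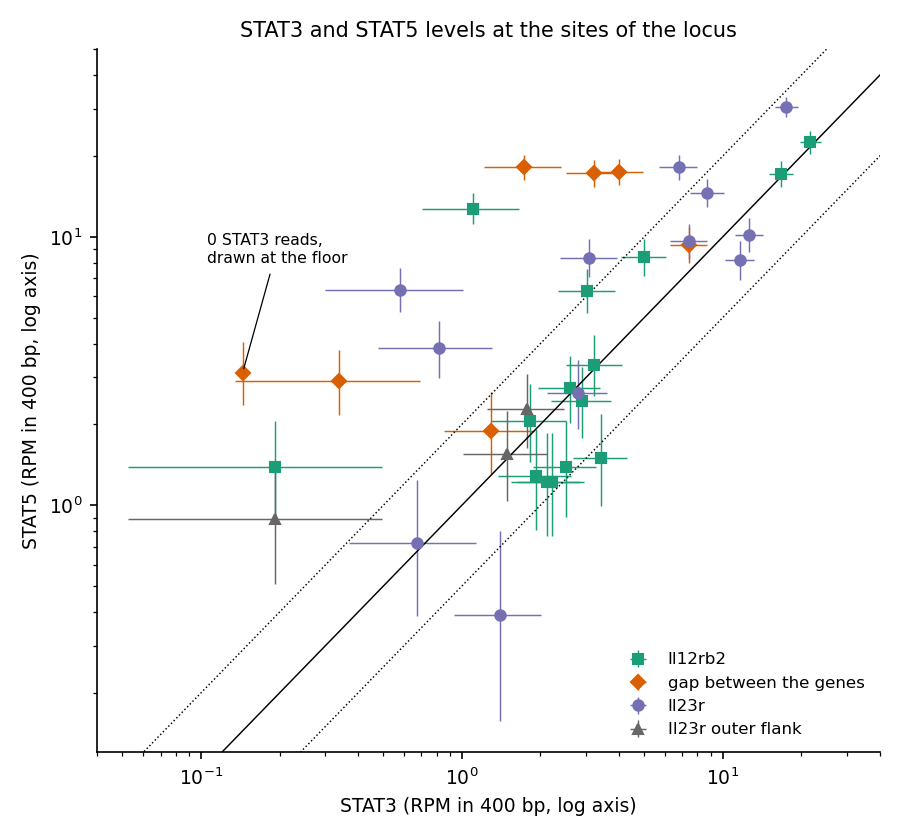
STAT5 against STAT3 level at each site in RPM over 400 bp (log axes), by part of the locus, with 95% Poisson intervals, a line of equal level and dotted lines at 2-fold. The tallest sites of Il12rb2 lie on the line of equal level, and sites of the gap rise above it, with 3 of them at 17.3 to 18.1 RPM of STAT5 and 1.73 to 3.99 RPM of STAT3.

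Where both antibodies had 50 or more reads at a site, their reads lay close together. At these 15 sites the median fragment positions of the libraries differed by a median of 17.5 bp, and by 25 bp or less at 11. The largest offset was 90 bp, at the STAT5-higher site from 67393451 to 67393850. The positions were taken in a common window of 400 bp, which bounds the offset. A site called with 1 antibody was not always empty with the other: the 5 STAT3-only sites held 7 to 34 STAT5 reads and the 12 STAT5-only sites 0 to 58 STAT3 reads. STAT5 was called higher at 7 of those 12, but the same reads made them STAT5-only, so a high share is partly built in. The matching share over STAT5-only sites of the genome is not given here.

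The outer flanks had few sites. The 21 kb beyond the tail of Il12rb2, on the Serbp1 side, held none. Its density was 0.552 RPM per kb of STAT3 (interval 0.485 to 0.626) and 0.490 of STAT5 (0.422 to 0.566). The even genome level of 0.424 lies below the STAT3 interval and within that of STAT5. The 38 kb upstream of Il23r held 3 low sites, with 4 to 37 STAT3 and 16 to 41 STAT5 reads. No read of either library fell in 13 of the 1 kb bins there, against 2 in the rest of the locus, and the part of such bins in the low count of sites was not tested.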

How the data were processed

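The deposited files list aligned 25 nt reads, 1 line each, on mm9 per the submitters' processing notes, with at most 1 read per position and strand. For the aligner and the removal of duplicates, the sources used here name nothing. The deposited score column was 0 wherever looked at and was not used. Read 5′ ends were moved 50 bp in the 3′ direction and counted in 200 bp windows moved by 50 bp (numpy 2.4.6 and pandas 2.3.3 under Python 3.11.15). A window was called with at least 5 reads, a count 4 or more times each of 3 means (of the genome, of 5 kb and of 10 kb around it), and a Poisson p, adjusted by Benjamini-Hochberg over all windows with a read, of at most 1e-05. Windows within 100 bp were joined, regions with over 80% of summit reads on 1 strand were left out, and regions of both libraries that shared 1 bp became 1 site. The caller was run on simulated sites set apart on an even background of 1 chromosome, unlike this dense locus, and its recovery is not given here. Ratios have exact conditional (Clopper-Pearson, scipy 1.17.1) intervals, and no p-value was computed between libraries. All sites of the locus are given, in full where tall or called. The gene intervals, lists and rules were chosen with earlier results of these data known. Exons, introns, site sequences and other pathway genes need an mm9 reference and are not reported here.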

Additional observations from a re-analysis of the deposited data

How the results depend on the processing

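Of the planned recalculations, 67 stayed within 1.5 times the count or within the interval of the ratio, and 19 moved. With a minimum of 8-fold there were 10 STAT3 regions, 14 STAT5 regions and 16 sites, 6 of them in Il23r and 4 in Il12rb2. STAT5 was higher at 6 of these 16 sites, and the genome share at that setting is not given here. Without local means, STAT3 regions numbered 47 and Il23r sites 22. The scaling by bins without regions multiplies STAT3 levels by 0.723 and gave ratios of 2.40 at the tallest Il23r site and 1.44 at the tallest Il12rb2 site, and the correction for places already taken gave 2.19 at the former. An interval beyond 1.5-fold made 1 of the 37 sites higher with STAT3, beside 4947 of the 86803 sites of the genome. One beyond 1-fold made 18 higher with STAT5 and 7 with STAT3, beside 36566 and 14956 over the genome. The Il23r over Il12rb2 density of STAT3 was 1.17 with gene ends moved 1 kb inward and 1.16 outside sites, and that of STAT5 was 1.76 with ends moved inward, 1.46 with ends moved outward and 1.26 with 10 kb upstream added. The calls of STAT5-higher sites numbered 9 when counted in 800 bp and 14 when scaled by bins without a region. Of these, 9 and 11 were among the 11 reported. Over the 86803 sites of the genome, 18333 and 28101 were called higher with STAT5 under these settings. Recalculations with other gene ends, added after the data were seen, moved the Il23r over Il12rb2 quotient of the STAT5 over STAT3 ratio to 1.06 with 10 kb upstream added, 1.17 with ends moved outward and 1.51 with ends moved inward. STAT5-higher sites of Il12rb2 then numbered 4 with 10 kb upstream added, which left 3 in the gap, and 1 with ends moved inward. Around the starts, alternatives chosen after the data were seen turned the Il23r ratio to 1.19 with 10 kb on either side and 1.03 with the scaling by bins, and moved the Il12rb2 ratio to 4.31 with 2 kb, 1.94 with 10 kb and 4.83 with that scaling. Beyond what each rule fixes, the cause was not tested. No paired analysis was possible because each antibody has 1 library. Depth limits sites with few reads, whose intervals span several fold.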
